A study of Mus musculus with 6 samples.

Results

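The nuclear genes for the subunits of oxidative phosphorylation were followed at their promoters. A peak of the deposited table was a member when the symbol of its nearest gene began with Nduf followed by a, b, c, s or v and a digit, with Uqcr, with Cox followed by 4 to 8 or with Atp5, or was Sdha, Sdhb, Sdhc, Sdhd or Cyc1, and when its first listed distance to the start of that gene was within 1000 bp. This gave 132 of the 109859 peaks, belonging to 75 genes. By respiratory complex there were 58 peaks of 34 genes for complex I, 4 peaks of 4 genes for complex II, 19 peaks of 9 genes for complex III, 25 peaks of 13 genes for complex IV and 26 peaks of 15 genes for complex V. Of the genes, 33 had 1 member peak, 28 had 2, 13 had 3, and Cox7a2l had 4. A name is not always a role: Atp5s and Atp5sl match by symbol and are not counted among the structural subunits, Ndufa4 is nowadays counted with complex IV, and Cox7a2l is a factor of respiratory supercomplexes.

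The data are ATAC-seq read counts, from an assay in which the Tn5 transposase cuts and tags open DNA, on mm10 coordinates. Lineage-negative (Lin-) bone marrow cells, which remain after mature blood cells are removed, were taken from 3 wildtype mice and from 3 mice with a conditional knockout of Mel18 in the blood-forming system. Mel18, encoded by Pcgf2, is a subunit of the Polycomb repressive complex PRC1, and the study asked whether its loss changes chromatin accessibility in these cells. The sources used here do not give the line that drives the deletion, any inducing agent, the strain, or the age and sex of the mice, and they name no treatment for either group.

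Oxidative phosphorylation takes electrons from NADH through complex I, or from succinate through complex II, and passes them by way of complex III to oxygen at complex IV. Complexes I, III and IV pump protons, and complex V, the ATP synthase, uses the proton gradient to make ATP. Nearly all subunits are nuclear genes that most cells use, while a few have tissue-restricted isoforms, and resting blood stem cells are known for relying more on glycolysis than their cycling progeny do. Nuclear respiratory factor 1 (NRF1), the ETS family factor GABP and YY1 are known regulators of many of these promoters.

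Upstream promoter sequence is shown for 6 members. For each complex it is the start with the smallest p whose upstream bases hold a match for NRF1, ETS, YY1, ERR or CREB, and Atp5j is added because its peak is shared with Gabpa, the gene for the DNA-binding subunit of GABP. The bases are from RefSeq on GRCm38.p6, on the minus strand for all 6, 5′ to 3′, and end at the base before the gene's start. They are at chr16:37654369-37654618 for Ndufb4, chr13:74350241-74350316 for Sdha, chr13:30545317-30545566 for Uqcrfs1, chr5:115348959-115349208 for Cox6a1, chr2:174464102-174464351 for Atp5e and chr16:84834977-84835123 for Atp5j. Those of Sdha and Atp5j are shorter because the start of a neighbouring gene lies beyond them. Capitals mark matches, on either strand, to the motifs of NRF1, ETS factors, YY1, CREB, SP/KLF factors or NF-Y, whose letters stand with the motif counts: there are 3 NRF1 matches in Ndufb4 and 2 each in Sdha and Cox6a1, a CREB match in Uqcrfs1, an ETS match each in Cox6a1 and Atp5e, and a YY1 and an ETS match in Atp5j. The other capitals, in Ndufb4, Cox6a1 and Atp5e, are SP/KLF and NF-Y matches.
Ndufb4: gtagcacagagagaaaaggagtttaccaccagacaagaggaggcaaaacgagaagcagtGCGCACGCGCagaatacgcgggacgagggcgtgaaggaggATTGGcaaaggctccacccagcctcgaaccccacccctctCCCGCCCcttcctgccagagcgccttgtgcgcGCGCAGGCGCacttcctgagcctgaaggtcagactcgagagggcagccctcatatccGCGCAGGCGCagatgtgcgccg
Sdha: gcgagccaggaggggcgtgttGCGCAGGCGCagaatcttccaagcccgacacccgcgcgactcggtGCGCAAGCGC
Uqcrfs1: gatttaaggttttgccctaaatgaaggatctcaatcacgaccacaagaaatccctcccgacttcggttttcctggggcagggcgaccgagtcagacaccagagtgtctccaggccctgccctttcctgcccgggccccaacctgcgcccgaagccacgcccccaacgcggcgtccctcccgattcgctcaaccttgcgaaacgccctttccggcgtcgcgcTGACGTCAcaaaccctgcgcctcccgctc
Cox6a1: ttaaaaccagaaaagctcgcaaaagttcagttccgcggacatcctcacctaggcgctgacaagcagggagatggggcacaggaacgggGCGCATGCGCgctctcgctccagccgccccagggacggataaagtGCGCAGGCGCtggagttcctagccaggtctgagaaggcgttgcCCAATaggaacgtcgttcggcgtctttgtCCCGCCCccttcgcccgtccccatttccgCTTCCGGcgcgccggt
Atp5e: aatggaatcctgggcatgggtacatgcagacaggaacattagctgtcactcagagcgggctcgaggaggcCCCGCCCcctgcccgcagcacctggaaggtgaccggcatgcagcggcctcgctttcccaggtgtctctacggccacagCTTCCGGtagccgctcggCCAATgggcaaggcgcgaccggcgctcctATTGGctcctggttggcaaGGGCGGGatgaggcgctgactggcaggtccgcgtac
Atp5j: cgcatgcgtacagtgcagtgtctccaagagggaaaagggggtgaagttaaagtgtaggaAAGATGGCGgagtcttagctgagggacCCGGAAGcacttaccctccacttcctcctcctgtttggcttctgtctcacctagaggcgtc

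Each library gave 12000808 to 13769335 peak reads in wildtype and 14487908 to 16709921 in knockout, and the members took 41371, 43246 and 51941 of them in wildtype libraries 1, 2 and 3 and 54887, 48822 and 48666 in knockout libraries 1, 2 and 3. Library numbers are those of the table's columns, which show the genotype and not the mouse. Wildtype library 3 stood apart, with Spearman correlations across all peaks of 0.862 and 0.857 to the other wildtype libraries, against 0.931 between those. Promoter peaks were listed for 6 of 7 stem and progenitor markers, and their summed level was 109.6 to 131.2 CPM (read counts scaled to library size) in wildtype and 121.4 to 122.6 CPM in knockout. The 5 erythroid markers had promoter peaks summing to 47.9, 55.6 and 119.5 CPM in wildtype libraries 1, 2 and 3 and to between 48.2 and 80.9 CPM in knockout. For 5 of 7 T and NK cell markers (Cd3e and Cd3d without) the sums were 35.2 to 60.2 CPM in wildtype and 32.7 to 39.3 CPM in knockout, for 5 of 7 myeloid markers (Prtn3 and Ly6g without) 38.0 to 65.2 CPM and 64.5 to 72.9 CPM, for 4 of 5 B cell markers 20.3 to 31.8 CPM and 14.5 to 20.4 CPM, and for Col1a1, the one of 5 stromal and endothelial markers with a promoter peak, 7.53 to 10.7 CPM and 8.30 to 10.3 CPM. The T, NK, B cell and erythroid sums were highest and the myeloid sum lowest in wildtype library 3, so some results below are also given without it. Where this is not said, values are from all 6 libraries only. The part of cell composition in the results was not tested.

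Peaks over the starts of these genes mostly had lower values in knockout libraries, by small amounts, as strongly open promoters had in general. No member passed an adjusted p of 0.05 (edgeR's quasi-likelihood test, TMM scaling, Benjamini-Hochberg over all peaks), and over all peaks the same test also called 0. At an unadjusted p under 0.05, 41 of 132 members (31.1%) were lower in knockout and 1 was higher, against 5.97% lower and 3.10% higher of all peaks and 19.1% lower and 1.11% higher of the 21892 promoter peaks within the same distance. DESeq2 put 23 members lower and 0 higher at its unadjusted p under 0.05. The count of 41 became 24 without knockout library 1, 26 without knockout library 2 or without knockout library 3, 12 with library sizes alone and 10, with 4 higher, when TMM was computed on promoter peaks. Shares of all peaks at that p are not given for these fits. The median log2 fold change of all promoter peaks was -0.17 with DESeq2, -0.03 with library sizes alone and 0.01 with TMM on promoter peaks. The median log2 fold change of knockout over wildtype was -0.19 over the members, 0.02 over all peaks and -0.15 over all promoter peaks. All 3 knockout libraries lay below all 3 wildtype libraries in CPM at 50 of 132 members and above them at 2, beside 8.01% lower and 7.63% higher of all peaks and 23.6% lower and 3.63% higher of promoter peaks. In the strongest decile of level they lay below at 46 of 63 members and above at 0. Of all promoter peaks of that decile, 55.0% were lower and 0.369% higher in this way. In cell mixtures such as these, fewer cells of one type and less open chromatin per cell cannot be told apart.

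With TMM scaling, peaks over the starts and peaks beside them differed in their values. Of the members, 72 peaks of 72 genes covered the start of their own gene and are called start peaks here, and 60 peaks of 44 genes did not. Start peaks had a median level of 37.7 CPM and a median width of 388 bp. The other 60 had a median level of 2.96 CPM and a median width of 123.5 bp. Fold changes were below 0 at 68 of 72 start peaks (94.4%), with a median of -0.25, beside 48.2% of all peaks, 69.8% of promoter peaks and 93.4% of promoter peaks of the strongest level decile. At an unadjusted p under 0.05, 37 of 72 (51.4%) were lower, beside 5.97% of all peaks and 34.0% of all promoter peaks that cover their nearest start. Of promoter peaks of the strongest level decile, which held 58 of the 72, 50.2% were lower. Of the other 60, 37 had a fold change below 0, with a median of -0.07, and 4 (6.67%) were lower and 1 (1.67%) was higher at that p, beside 4.32% and 1.71% of all promoter peaks off the start. Without wildtype library 3 the medians were -0.21 at start peaks and 0.09 at the others. Position and level cannot be told apart here: with a normalization that follows level, described next, the order turned, with medians of -0.07 at start peaks and -0.11 at the others, of which 39 were below 0.

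**Figure D1:**
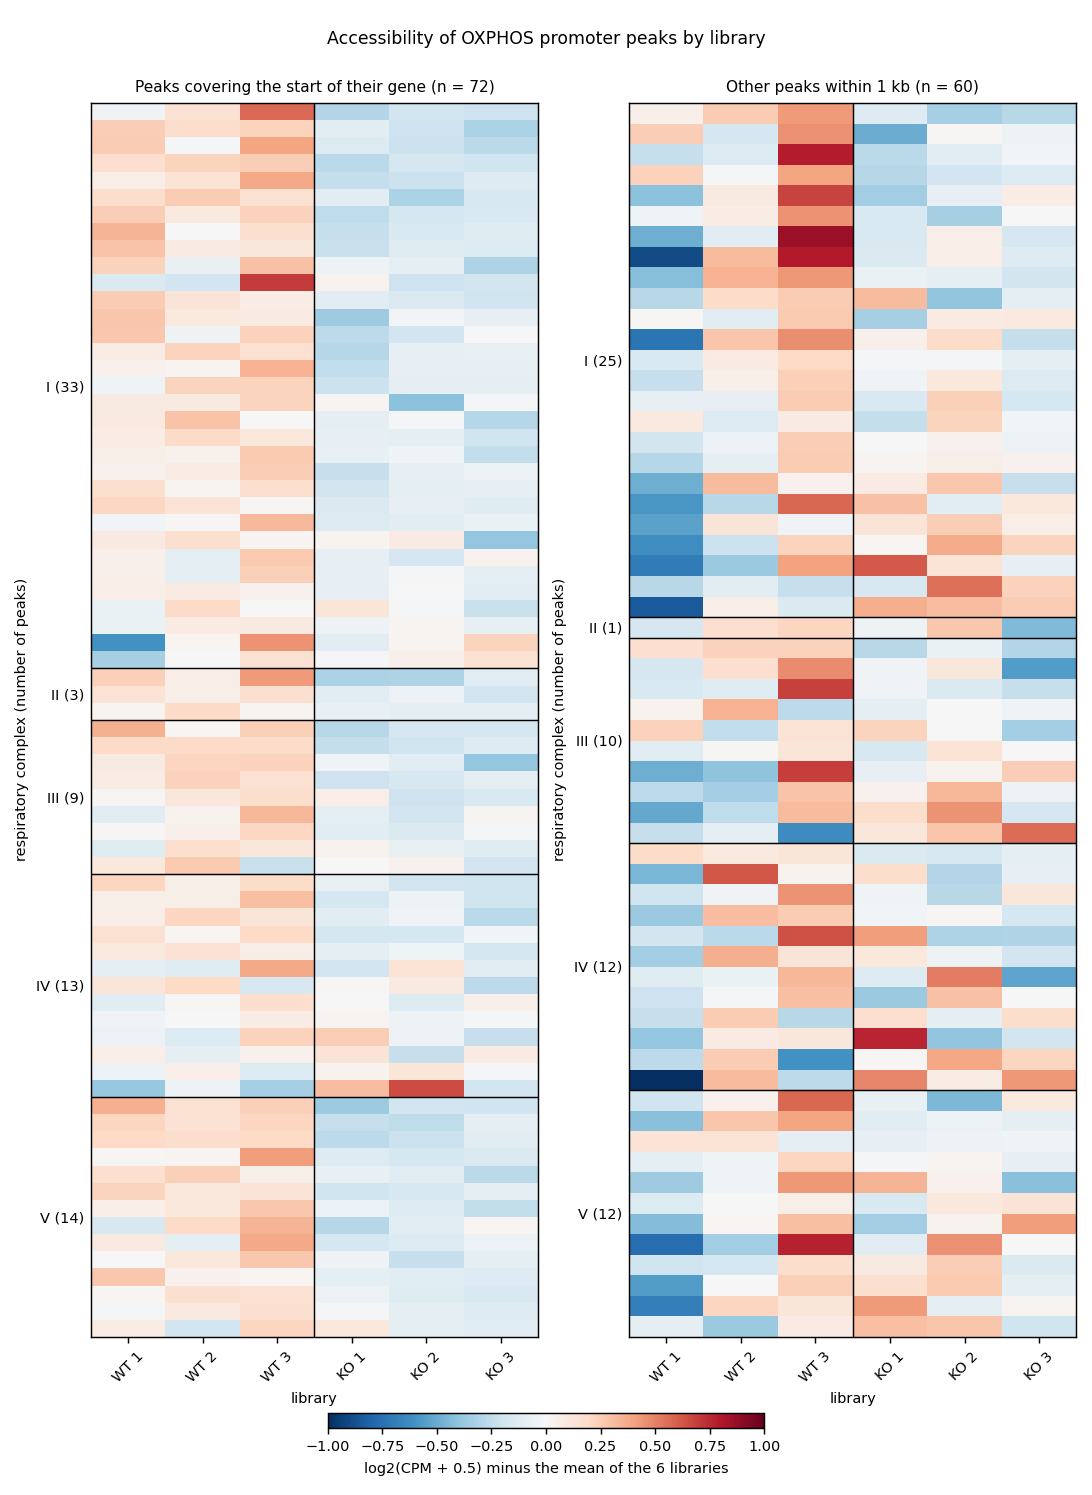
Every member peak (rows, by complex and within it by fold change) in each library (columns), coloured by log2(CPM + 0.5) minus the mean of the 6 libraries, on a scale from -1 to 1. Most of the 72 start peaks are above their mean in wildtype columns and below it in knockout columns, while the 60 other peaks vary most in wildtype libraries 1 and 3.

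Over the members as a whole, the difference went with the level of the peak. By mean log2 CPM, in 10 equal classes over all peaks, 63 members, 58 of them start peaks, fell in the strongest decile. There the members' median was -0.27 and 38 of 63 (60.3%) were lower at an unadjusted p under 0.05, with 0 higher, beside a median of -0.24 and 50.2% lower and 0.145% higher of the 7579 promoter peaks of that decile. The 69 members of the other deciles had a median of -0.07, and 3 of them (4.35%) were lower, beside -0.05 and 2.65% of promoter peaks there. Across the 132 members, which share the same libraries, the Spearman correlation of fold change with level was -0.42 (Pearson -0.51), and across all promoter peaks it was -0.36. It was weaker within each kind of member, at -0.15 within the 72 start peaks (Pearson -0.46) and -0.21 within the 60 others (Pearson -0.30). A trended normalization, in which each library is scaled along a curve of its values against mean level, brought the members' median to -0.09, beside -0.07 for all promoter peaks. At an unadjusted p under 0.05 it left 6 members (4.55%) lower and 0 higher, against 3.38% and 2.26% of all peaks and 3.96% and 1.82% of promoter peaks. In the strongest decile it left 4 of 63 members (6.35%) lower and 0 higher, beside 4.78% and 3.47% of promoter peaks. No member passed an adjusted p of 0.05 with this scaling (edgeR's quasi-likelihood test). This scaling is built to remove differences that follow level over all peaks, whatever their source, and it did not remove all dependence on level. With it the Spearman correlation of fold change with level was 0.16 across the members and 0.14 across all promoter peaks. It was 0.37 within the start peaks and 0.04 within the others.

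**Figure D2:**
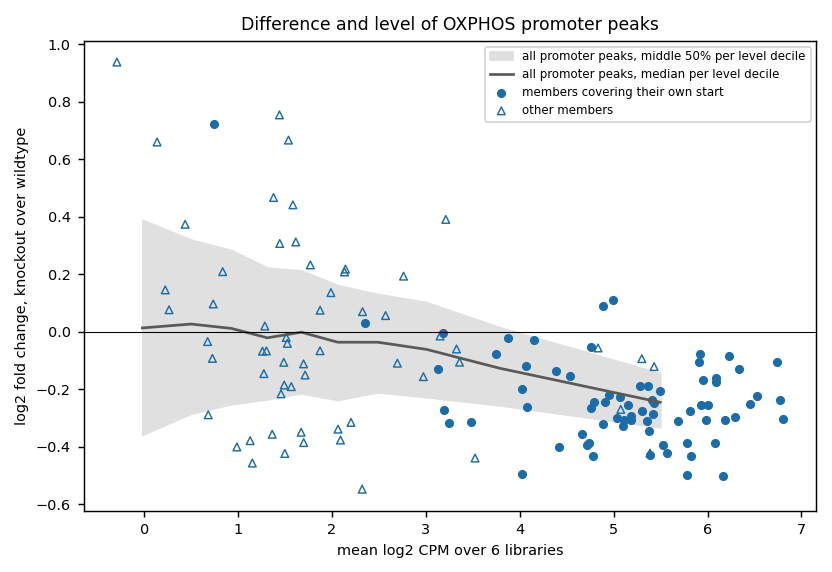
Log2 fold change of each member peak (y) against its mean log2 CPM over the 6 libraries (x), with start peaks as filled circles and other members as triangles. The line and the grey band are the median and the range from lower to upper quartile of all promoter peaks per level decile, and the start peaks lie at the strong end, around the median of -0.24 of promoters in the strongest decile.

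Complex I, the largest of the assemblies, had 33 start peaks with a median log2 fold change of -0.27, and 19 of them (57.6%) were lower at an unadjusted p under 0.05. Beside this, 34.0% of all promoter peaks over a start and 50.2% of promoter peaks of the strongest decile were lower. That decile held 28 of the 33. Ndufa4 had 47.0, 48.8 and 49.7 CPM in wildtype libraries 1, 2 and 3 and 34.6, 37.1 and 36.3 CPM in knockout libraries 1, 2 and 3 at its start peak. The groups did not overlap, and the log2 fold change was -0.43 ± 0.0997 (SE; adjusted p = 0.124, edgeR's quasi-likelihood test, as for each adjusted p below). A second Ndufa4 peak, 373 bp upstream, stood at 49.0, 41.4 and 54.8 CPM in wildtype and 34.2, 36.4 and 37.8 CPM in knockout, again without overlap (-0.42 ± 0.121; adjusted p = 0.234). Ndufb4, an accessory subunit of the membrane arm, had 54.5, 49.3 and 54.0 CPM in wildtype and 38.5, 40.5 and 41.3 CPM in knockout over its start. This peak also spans the 3 NRF1 matches printed above. Every knockout library was lower there as well, by a log2 fold change of -0.39 ± 0.0984 (adjusted p = 0.157). Ndufa5, an accessory subunit of the peripheral arm, had 67.5, 55.7 and 74.6 CPM in wildtype and 51.3, 48.6 and 46.8 CPM in knockout (-0.43 ± 0.112; adjusted p = 0.174), with a wildtype spread of 9.57 CPM (SD, n = 3) against 2.27 CPM in knockout. With trended normalization the fold changes were -0.24 at both Ndufa4 peaks, -0.19 at Ndufb4 and -0.21 at Ndufa5. Ndufb5, another membrane-arm subunit, had the highest CPM of the complex, also per length (236.5 CPM per kb over all libraries), with wildtype at 118.7 ± 8.07 CPM and knockout at 100.8 ± 2.19 CPM (SD of 3), in a peak that also covers the start of the mitochondrial ribosomal gene Mrpl47. Its log2 fold change was -0.24 ± 0.0727 (adjusted p = 0.281), and 0.07 with trended normalization.

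Of the complex I subunits that carry the redox chemistry, the iron-sulfur subunit Ndufs1 had at its start peak 25.1, 31.8 and 35.3 CPM in wildtype and 31.4, 32.9 and 35.2 CPM in knockout. The Ndufs1 groups overlapped, and its log2 fold change of 0.11 ± 0.141 (adjusted p = 0.882) was one of 4 above 0 among the 72 start peaks, with those of Ndufb3 (0.03), Cox7a1 (0.09) and Cox4i2 (0.72). Away from the start, the upstream peak of Ndufb6, a membrane-arm subunit, had 1.33, 2.91 and 2.46 CPM in wildtype and 3.71, 3.56 and 3.41 CPM in knockout. All 3 knockout values were higher, with a log2 fold change of 0.67 ± 0.319 (adjusted p = 0.573), at a level near that of many weak peaks. Ndufv2, a core subunit that takes part in NADH oxidation, had an upstream peak with 5.75, 7.78 and 10.7 CPM in wildtype and 9.27, 11.9 and 10.7 CPM in knockout (0.39 ± 0.252; adjusted p = 0.714), where the groups overlapped. The complex I member with the lowest CPM, downstream of the start of the core subunit gene Ndufs3, held 8 to 10 reads in each wildtype library and 14 to 25 in each knockout library (0.66 ± 0.426; adjusted p = 0.715).

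Complex II, which also serves the citric acid cycle as succinate dehydrogenase, had 3 start peaks, all without overlap between the groups and all lower in knockout. All 3 were in the strongest decile, where 55.0% of promoter peaks were lower without overlap and 93.4% had a fold change below 0. The peak of Sdha, the catalytic flavoprotein, held 64.7, 57.5 and 73.6 CPM in wildtype and 43.9, 44.2 and 50.6 CPM in knockout. This was a log2 fold change of -0.50 ± 0.111 (adjusted p = 0.11), and -0.28 with trended normalization. The Sdha peak also covers the start of Ccdc127, so its reads cannot be assigned to one of the 2 genes. Sdhc, a membrane anchor, had 46.6, 44.0 and 47.4 CPM in wildtype and 39.4, 40.6 and 37.0 CPM in knockout (-0.24 ± 0.101; adjusted p = 0.499; -0.05 with trended normalization). Sdhb, the iron-sulfur subunit, had 63.0, 70.6 and 62.9 CPM in wildtype and 58.8, 58.1 and 58.1 CPM in knockout (-0.17 ± 0.0870; adjusted p = 0.621), and its fold change was 0.07 with trended normalization. Sdhd, the other anchor, had as its member a weak peak 260 bp downstream of the start, with 2.75, 3.59 and 3.73 CPM in wildtype and 3.01, 3.89 and 2.19 CPM in knockout, which overlapped (-0.15 ± 0.30; adjusted p = 0.933). The peak over the Sdhd start is assigned to its neighbour Timm8b, and had a wildtype mean of 60.2 ± 6.36 CPM and a knockout mean of 47.5 ± 1.24 CPM (SD of 3), without overlap (-0.34 ± 0.101; adjusted p = 0.261).

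Complex III had 9 start peaks, 1 for each gene, with a median of -0.20, and 4 of them (44.4%) were lower at an unadjusted p under 0.05. The share was 34.0% of all promoter peaks over a start and 50.2% of promoter peaks of the strongest decile. Uqcrfs1, the Rieske iron-sulfur protein, held 62.7, 62.7 and 62.2 CPM in wildtype and 46.2, 47.5 and 49.9 CPM in knockout. The wildtype libraries were nearly equal here and every knockout library was below them, at a log2 fold change of -0.38 ± 0.0877 (adjusted p = 0.119; -0.16 with trended normalization). Uqcrc2, one of the core proteins, had 60.7, 48.1 and 55.9 CPM in wildtype and 38.9, 42.2 and 41.9 CPM in knockout (-0.42 ± 0.109; adjusted p = 0.175; -0.22 with trended normalization). Uqcrc1, the other core protein, gave both signs within 1 kb. Its start peak held 42.9, 47.9 and 45.3 CPM in wildtype and 35.3, 36.5 and 38.1 CPM in knockout (-0.31 ± 0.104; adjusted p = 0.339; -0.13 with trended normalization). Its peak 461 bp upstream held 2.12, 2.39 and 1.49 CPM in wildtype and 2.84, 3.23 and 4.05 CPM in knockout. With all 3 knockout values higher and a log2 fold change of 0.75 ± 0.309 (adjusted p = 0.478), that upstream peak was the one member higher at an unadjusted p under 0.05. Uqcrq, a small subunit whose start peak had the highest CPM of the complex, also per length (171.5 CPM per kb over all libraries), had 114.5, 127.8 and 91.3 CPM in wildtype and 107.0, 109.9 and 93.6 CPM in knockout, with overlap (-0.10 ± 0.115; adjusted p = 0.859), and a fold change of 0.20 with trended normalization. The lowest CPM of the complex lay in Cyc1, the cytochrome c1 gene, 655 bp from its start, where wildtype had 1.10 ± 0.485 CPM and knockout 1.44 ± 0.409 CPM (SD of 3; 0.37 ± 0.428; adjusted p = 0.863).

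Complex IV, cytochrome c oxidase, had the smallest shift of the 5, with a median of -0.11 over 13 start peaks. Of these, 4 (30.8%) were lower at an unadjusted p under 0.05, beside 34.0% of all promoter peaks over a start and 50.2% of promoter peaks of the strongest decile. That decile held 8 of the 13. The difference of complex IV from the other complexes was not tested. Without wildtype library 3 the medians of start peaks were 0.01 for complex IV, -0.24 for I, -0.21 for II, -0.22 for III and -0.21 for V. With trended normalization the medians of start peaks were 0.00 for complex IV, -0.11 for I, -0.05 for II, -0.13 for III and -0.09 for V. Cox7a2 held 84.5, 75.6 and 82.3 CPM in wildtype and 69.0, 63.7 and 63.1 CPM in knockout over its start. The knockout libraries were all lower, with a log2 fold change of -0.31 ± 0.0829 (adjusted p = 0.195), and -0.05 with trended normalization. Cox7c, with the highest CPM of the complex but 141.1 CPM per kb over all libraries against 156.0 for Cox7a2, had 97.7, 89.0 and 100.4 CPM in wildtype and 77.7, 77.7 and 85.9 CPM in knockout (-0.25 ± 0.0808; adjusted p = 0.309; 0.03 with trended normalization). Cox5a had 41.3, 45.8 and 42.9 CPM in wildtype and 36.6, 38.4 and 32.6 CPM in knockout (-0.27 ± 0.111; adjusted p = 0.468). Cox7a2, Cox7c and Cox5a encode nuclear subunits around the catalytic core, and their groups did not overlap. Cox6a1, whose upstream sequence above holds 2 NRF1 matches, had 37.7, 37.7 and 44.7 CPM in wildtype and 31.9, 34.9 and 31.4 CPM in knockout (-0.29 ± 0.117; adjusted p = 0.468). With trended normalization the fold changes were -0.10 at Cox5a and -0.13 at Cox6a1.

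**Figure D3:**
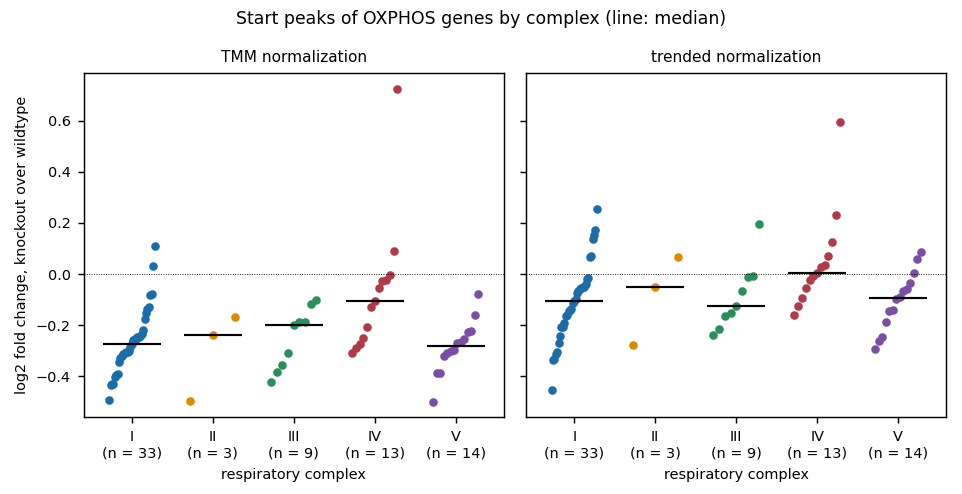
Log2 fold change of each start peak, knockout over wildtype (y), by respiratory complex (x), with TMM scaling on the left and trended normalization on the right, and black lines for medians. Medians run from -0.28 to -0.11 on the left and from -0.13 to 0.00 on the right, and Cox4i2 is the point above the others in complex IV.

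The isoforms of complex IV that are known from particular tissues ranged from weak to strong peaks. Cox4i2, the isoform known from lung, had 1.06, 1.45 and 1.12 CPM in wildtype and 2.03, 2.71 and 1.29 CPM in knockout over its start and its groups overlapped (0.72 ± 0.385; adjusted p = 0.629). Cox7a1, the heart and muscle isoform, had the highest CPM of them, also per length (81.1 CPM per kb over all libraries), at 28.2, 30.7 and 26.6 CPM in wildtype and 30.1, 31.9 and 28.9 CPM in knockout (0.09 ± 0.124; adjusted p = 0.896). Cox6b2, the testis isoform, had 3 members with wildtype at 14.7 ± 2.12, 8.45 ± 3.34 and 3.16 ± 0.666 CPM and knockout at 14.5 ± 2.53, 7.6 ± 2.5 and 3.71 ± 1.92 CPM (SD of 3), with overlapping groups at each. Their log2 fold changes were -0.02 ± 0.201, -0.16 ± 0.311 and 0.23 ± 0.363 (adjusted p = 0.988, 0.933 and 0.909). Cox6b1, its widely used counterpart, had the member with the lowest CPM, 208 bp into the gene, with 1, 12 and 7 reads in wildtype libraries 1, 2 and 3 and 21, 12 and 18 in knockout libraries 1, 2 and 3 (0.94 ± 0.583; adjusted p = 0.701). Over its start, wildtype had 17.7 ± 0.757 CPM and knockout 17.4 ± 0.477 CPM (SD of 3). Of the other isoforms in the list, Cox6a2, Cox8b, Cox8c and Ndufa4l2 had no member, and the nearest peaks of Ndufa4l2 and Cox6a2 lay 1226 and 2030 bp from their starts.

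Complex V, the ATP synthase, had 14 start peaks, all with a fold change below 0, a median of -0.28 and 8 (57.1%) lower at an unadjusted p under 0.05. Of promoter peaks over a start 34.0% were lower. Of promoter peaks of the strongest decile 50.2% were lower and 93.4% had a fold change below 0. The start peak of Atp5e, the epsilon subunit of the central stalk, held 91.7, 79.4 and 84.2 CPM in wildtype and 55.5, 63.0 and 62.1 CPM in knockout. This gave the smallest p of the members, with means of 85.1 ± 6.23 CPM and 60.2 ± 4.08 CPM (SD, n = 3 each) and a log2 fold change of -0.50 ± 0.0889 (adjusted p = 0.0606). It was -0.25 with trended normalization (adjusted p = 0.876, edgeR's quasi-likelihood test). The adjusted p was 0.00152 without wildtype library 3, 0.0394 without wildtype library 2, and between 0.231 and 0.517 without any other single library. Atp5c1, the gamma subunit of the same stalk, held 77.7, 76.6 and 77.8 CPM in wildtype and 56.4, 58.3 and 63.0 CPM in knockout (-0.39 ± 0.0820; adjusted p = 0.0951; -0.14 with trended normalization), in a peak shared with the start of Kin. Atp5j, coupling factor 6 of the peripheral stalk, held 130.2, 119.9 and 122.0 CPM in wildtype and 97.3, 99.6 and 104.7 CPM in knockout, in the peak shared with Gabpa. This was the highest CPM of all members, though per length it had 222.3 CPM per kb against 236.5 for Ndufb5, with no overlap between the groups and a log2 fold change of -0.30 ± 0.0692 (adjusted p = 0.119), which was 0.00 with trended normalization. Of the 5 subunits of the F1 head and its stalk, Atp5a1, Atp5b, Atp5c1, Atp5d and Atp5e, 4 were lower at an unadjusted p under 0.05, with a median of -0.31, beside the 34.0% of all promoter peaks over a start and 50.2% in the strongest decile. The other 9 start peaks of the complex had a median of -0.27, and 4 were lower. With trended normalization the medians were -0.10 and -0.09.

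Above 0 in complex V were members off the start. The Atp5g3 peak 672 bp from the start of this c-ring gene held 2.39, 1.88 and 2.76 CPM in wildtype and 3.30, 3.23 and 2.19 CPM in knockout (0.31 ± 0.308; adjusted p = 0.835). The upstream Atp5l peak, of the subunit g gene, held 4.34, 6.67 and 7.90 CPM in wildtype and 7.48, 8.05 and 6.17 CPM in knockout (0.19 ± 0.261; adjusted p = 0.889). In both peaks the groups overlapped. The complex V member with the lowest CPM, 627 bp downstream of the start of Atp5a1, the alpha subunit gene, held 0.974, 1.88 and 2.09 CPM in wildtype and 1.33, 1.39 and 1.35 CPM in knockout (-0.29 ± 0.379; adjusted p = 0.886).

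**Figure D4:**
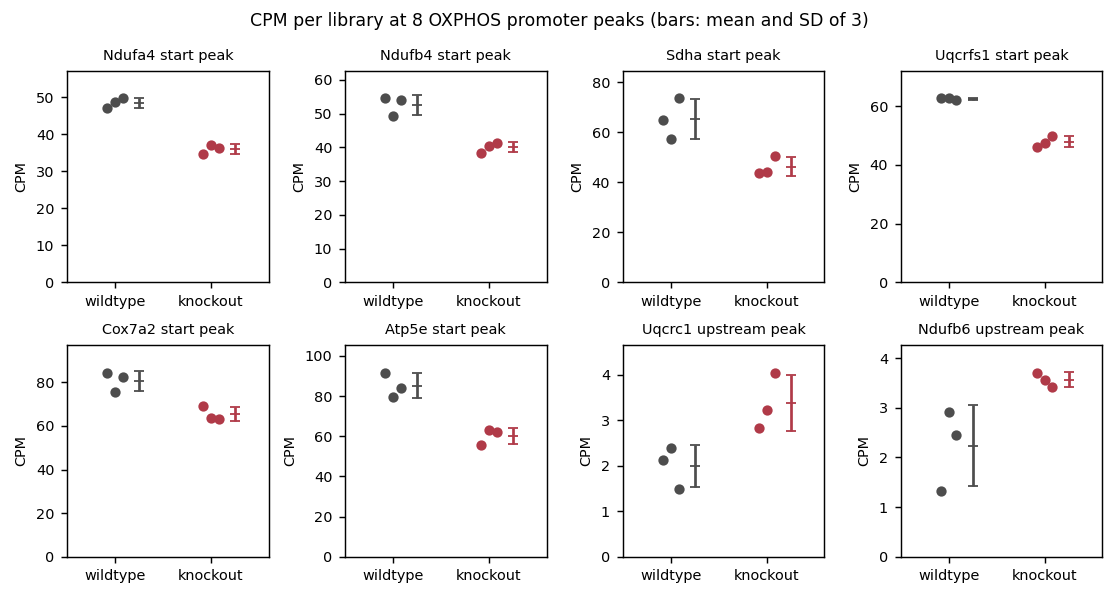
CPM per library (points) with mean and SD of 3 (bars) at 8 named peaks, wildtype in grey and knockout in red, each axis starting at 0. At the 6 start peaks all knockout points lie below all wildtype points, and at the upstream peaks of Uqcrc1 and Ndufb6, below 5 CPM, all lie above.

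Without wildtype library 3, 10 of 132 members passed an adjusted p of 0.05, all lower and all start peaks (edgeR's quasi-likelihood test). All 10 were among the 63 members of the strongest decile. Lower past it were 2.45% of all peaks, 8.06% of promoter peaks (1764 of 21892) and 22.8% of those of the strongest decile (1727 of 7579). The members' share was thus no larger than that of promoter peaks, in all or in that decile. The 10 were the peaks of Ndufa4, Ndufb4, Ndufb5, Sdha, Uqcrfs1, Uqcrc2, Atp5c1, Atp5d, Atp5e and Atp5j, with log2 fold changes from -0.50 at Atp5e to -0.28 at Ndufb5. No member was higher past that threshold, beside 0.29% of all peaks, 0.169% of promoter peaks and 0.119% of those of the strongest decile. The median over all members was between -0.28 and -0.10 whichever 1 library was left out, while that of members off the start turned, as given above. With both changes, leaving out wildtype library 3 and using trended normalization, the median was 0.0088.

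As a share of all peak reads, the members took 0.345%, 0.356% and 0.377% in wildtype libraries 1, 2 and 3 and 0.329%, 0.337% and 0.329% in knockout libraries 1, 2 and 3. The groups did not overlap, at 0.359% ± 0.0166 and 0.331% ± 0.0048 (SD, n = 3 each). All promoter peaks together took 53.9% ± 1.70 in wildtype and 50.2% ± 0.285 in knockout, also without overlap. Of the reads in promoter peaks, the members took 0.647%, 0.676% and 0.676% in wildtype and 0.654%, 0.669% and 0.660% in knockout. Set against the other promoters of the same library the groups thus overlapped, at 0.666% ± 0.0172 and 0.661% ± 0.0074. By complex, the shares of promoter reads overlapped for I, III, IV and V and did not for II, at 0.0320% ± 0.000742 in wildtype and 0.0305% ± 0.000675 in knockout. Members off the start took 0.0389% ± 0.00536 of all peak reads in wildtype and 0.0391% ± 0.00100 in knockout, and start peaks 0.320% ± 0.0112 and 0.292% ± 0.00382.

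**Figure D5:**
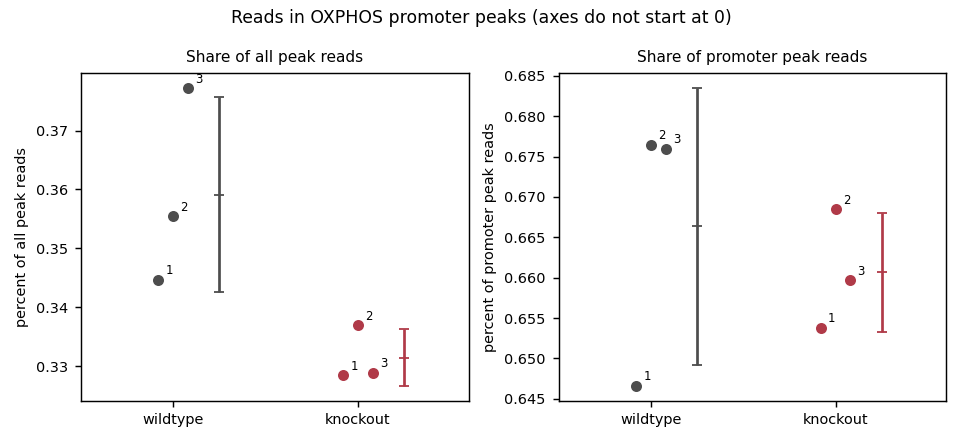
Percent of all peak reads (left) and of promoter peak reads (right) in the 132 member peaks, for each library (numbered points) with mean and SD of 3 (bars). The groups are apart on the left and overlap on the right, and neither axis starts at 0.

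Several start peaks serve 2 genes, and some starts lie in a peak that carries another name. Of the 72 start peaks, 15 also cover the start of another gene. By symbol, 88 protein-coding genes of the RefSeq table fit the same name patterns, and 15 of them had no member. Among these is Cox4i1, the main form of complex IV subunit 4, whose start lies in a peak assigned to Emc8 where wildtype had 57.3 ± 1.54 CPM and knockout 48.2 ± 3.74 CPM (SD of 3; -0.25 ± 0.0961; adjusted p = 0.438). Likewise the start of Ndufb11 lies in a peak of Rbm10 (-0.17 ± 0.116; adjusted p = 0.744), and that of Atp5h in a peak of Kctd2 (-0.38 ± 0.101; adjusted p = 0.179). In these peaks too, as in that of Timm8b at Sdhd, each knockout library was below each wildtype library. The same was so at 23.6% of all promoter peaks and 55.0% of those in the strongest decile. Around the distance limit, the members farthest from their starts were in Atp5d (-846 bp; -0.12), Ndufs4 (859 bp; 0.15) and Ndufb7 (-893 bp; -0.31), and the nearest peaks outside it in Ndufs3 (1111 bp; 0.39), Cyc1 (1133 bp; 0.11) and Atp5g3 (-1152 bp; 0.30), given as log2 fold changes.

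The other genes of the pathway are read against promoter peaks that cover their nearest start, of which 34.0% were lower at an unadjusted p under 0.05 with a median log2 fold change of -0.21, and against those of the strongest decile, with 50.2% lower. Of 36 start peaks of respiratory chain assembly factors, 18 were lower at that p and 0 higher, with a median log2 fold change of -0.24. Of 12 start peaks of regulators, 6 were lower and 0 higher (median -0.26). The cytochrome c gene Cycs, in the same list, had no promoter peak. For the citric acid cycle 4 of 12 start peaks (33.3%) were lower (median -0.20) and for glycolysis 4 of 18 (22.2%; median -0.12), with 0 higher in each. With trended normalization the medians of these 4 lists were -0.06, -0.04, 0.01 and 0.05. None of these peaks passed an adjusted p of 0.05 with all libraries. Without wildtype library 3, 14 of 36, 6 of 12, 4 of 12 and 7 of 18 start peaks, in the same order, were lower at an unadjusted p under 0.05. Of the 10902 promoter peaks over a start, 3913 were. The medians were then -0.18, -0.28, -0.19 and -0.14, beside -0.17. Past an adjusted p of 0.05, 8, 3, 1 and 4 were lower, beside 1620 of the 10902 (edgeR's quasi-likelihood test). The start peak with the smallest p in each list, named after its values were seen, was that of Cox18, which inserts a complex IV subunit into the membrane, where wildtype had 172.0 ± 6.12 CPM and knockout 131.8 ± 8.07 CPM (SD of 3; -0.38 ± 0.0660; adjusted p = 0.0606). For the regulators it was Nrf1 (-0.49 ± 0.131; adjusted p = 0.194), for the citric acid cycle the fumarase gene Fh1 (-0.32 ± 0.0657; adjusted p = 0.0873) and for glycolysis the phosphoglycerate kinase gene Pgk1 (-0.32 ± 0.0827; adjusted p = 0.165). With trended normalization these 4 peaks had -0.04, -0.35, 0.01 and -0.07. Beside the 37 of 72 start peaks of the subunits (median -0.25), 31 of 64 were lower for cytosolic ribosomal proteins (median -0.23) and 15 of 40 for proteasome subunits (median -0.23).

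Promoter motifs were counted in RefSeq windows from 250 bases before to 50 after a start, on both strands, for the 59 start peaks that overlap a window of their gene. The palindromic NRF1 motif was in 13 of the 59 (22%), among these Ndufb4, Sdha, Cox6a1, Ndufa5 and Uqcrc1. It was in 4.6% of all windows and in 14.2% of the windows that overlap a promoter peak of the strongest decile. YY1's AAGATGGCG was in 8 (13.6%), against 1.40% and 4.05%, and CREB's TGACGTCA in 4 (6.78%), against 1.79% and 4.21%. The ETS motif CCGGAAG, in 14 (23.7%), was as frequent as in windows of the strongest decile (23.3%), and SP/KLF's GGGCGGG, in 18 (30.5%), was less frequent than there (55.2%). NF-Y's ATTGG was in 24 (40.7%, against 43.5%), ERR's TCAAGGTCA in 1 (1.69%, against 0.174%), and 12 windows held none of the 7. The GC content of the members' windows had a median of 57.0%, against 63.0% in windows of the strongest decile. Start peaks with an NRF1 match had a median log2 fold change of -0.32 and those without one of -0.26, a difference that was not tested, and 10 of 13 and 24 of 46 were lower at an unadjusted p under 0.05. With and without YY1 the medians were -0.29 and -0.27, with and without ETS -0.22 and -0.30, SP/KLF -0.27 and -0.27, and NF-Y -0.26 and -0.30. Lower at that p were 5 of 8 with and 29 of 51 without YY1, and 5 of 14 and 29 of 45 for ETS. For SP/KLF they were 10 of 18 and 24 of 41, and for NF-Y 11 of 24 and 23 of 35. The 4 with a CREB match had a median of -0.35, all lower at that p, and the 55 without one -0.27, with 30 lower. A match is a string of letters and not evidence of binding.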

How the data were processed

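Per the submitters' processing notes, which state neither roles nor order, the authors used the build mm10, MACS2 2.1.1, Picard, Bowtie2 1.2.2, Trimmomatic 0.40, MultiQC 0.11.5 and FastQC, with version numbers as listed there. The sources used here do not give the counting tool, a Tn5 offset or duplicate removal, each of which can move counts near a start. Per the file headers, the deposited table holds raw counts of reads per peak in 6 libraries, the nearest start, and the authors' log2 fold change, mean log2 CPM, p-value and adjusted p-value for knockout over wildtype. The counts are whole numbers and were deposited without normalization, and 12 other columns of per-library values were not used. The deposited p-values served as a check: an edgeR likelihood ratio test came within 1.16e-07 of them.

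Differences were tested with edgeR 4.0.16 in R 4.3.3, by its robust quasi-likelihood F-test after TMM scaling and filterByExpr, which removed 0 peaks. The fit took all 109859 peaks of the 6 libraries, without covariates, and p-values were adjusted by Benjamini-Hochberg over every peak, at 0.05. It was tested on simulated data. CPM use TMM library sizes, SE is the fold change over the root of F, and trended normalization used loess offsets (span 0.3) on log2 CPM with a prior count of 2. Alternatives used DESeq2 1.42.0 and limma 3.58.1. Column names show the genotype and not the mouse. The labels give separate mice, and chi-square per degree of freedom between libraries was 2.26 or more, so none was a duplicate.

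The members, gene lists, motifs and tests were chosen with earlier results of these data known. Named peaks were, per complex, up to 3 with the smallest p on the lower and 2 on the higher side, the highest and the lowest mean CPM, all Sdh genes and the tissue-restricted isoforms; Cox6a1, Ndufs1, the second Ndufa4 peak and peaks of other genes were added after their values were seen. Gene names matched RefSeq (GRCm38.p6) by symbol for 73 of 75 genes and by synonym for 2, and promoter sequences are RefSeq's.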

Additional observations from a re-analysis of the deposited data

How the results depend on the processing

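No paired analysis was possible because the mice of the groups share no numbers in the labels and the columns name no mouse. The share of all peak reads was lower in knockout under each setting that applies to it (leaving out a library, other member definitions), at -0.0349 to -0.0187 percentage points without 1 library against -0.0277 with all, and the difference in the share of promoter reads was -0.0156 to -0.00059 against -0.00568. The count of members lower at an unadjusted p under 0.05 was 41 as reported, 43 with DESeq2 size factors, 23 with DESeq2's Wald test, 20 with edgeR's likelihood ratio test, 12 with library sizes alone, 10 with TMM on promoter peaks, 6 with trended normalization, 4 with trended normalization and without wildtype library 3, and 24 to 41 without any 1 library. The count of members higher was 1 as reported, 4 with TMM on promoter peaks and without wildtype library 3 with trended normalization, 3 with library sizes alone, 2 with the likelihood ratio test and with limma-voom, 0 with DESeq2, trended normalization, 1 peak per gene or peaks covering the own start (an alternative chosen after seeing the data), and 0 to 4 without any 1 library. Past an adjusted p of 0.05 there were 0 lower members as reported, 1 (Atp5e) with DESeq2 size factors and with limma-voom, and 0 to 10 without any 1 library, with 0 higher throughout. Of all 109859 peaks, 466 were lower past it with DESeq2 size factors and 302 with limma-voom, 533 without wildtype library 2 and 2694 without wildtype library 3. DESeq2 gave no adjusted p for 93 of the 132 members. The median log2 fold change was -0.19 as reported, -0.033 with TMM on promoter peaks and 0.0088 with trended normalization without wildtype library 3, and -0.28 to -0.10 without any 1 library. The median of all peaks itself moved from 0.02 to 0.14 with library sizes alone and to 0.17 with TMM on promoter peaks, where the members' median was -0.07 and -0.033. The cause of these changes was not tested beyond what each scaling is built to remove. Of 32 named peaks, 22 kept their direction in all 16 fits and 10 did not. With trended normalization the changed log2 fold changes were 0.068 at Ndufb5, 0.067 at Sdhb, 0.20 at Uqcrq, 0.027 at Cox7c, 0.0049 at Atp5j and 0.0049 at the Cox6b2 start peak. With trended normalization and without wildtype library 3 they were 0.023 at Ndufb5, 0.056 at Sdhb, 0.082 at Uqcrq, 0.073 at Cox7c, and 0.23 and 0.19 at Cox6b2. With TMM on promoter peaks they were 0.00096 at Sdhd, 0.039 at Uqcrq, and 0.0078 and 0.13 at Cox6b2, and with library sizes alone 0.020 at Uqcrq and 0.096 at Cox6b2. Leaving out 1 library gave -0.37 to 0.037 at Sdhd, -0.048 to 0.40 at Atp5l, and -0.28 to 0.47, -0.46 to 0.23 and -0.17 to 0.11 at the 3 Cox6b2 peaks. Depth limits the members off the start most, since several held under 30 reads in a library.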
